A study of Mus musculus with 12 samples.

Results

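The genes described here are 40 listed genes for matrix glycoproteins and proteoglycans other than collagens, followed through the reprogramming of mouse fibroblasts to pluripotency. They were found by gene symbol among the 37583 genes of the count tables. All 40 were matched and all 40 passed the filter on low counts, which kept 16240 genes. Transcripts were counted in 12 poly-A libraries, 2 for each of 6 groups of 129SV/Jae/C57BL6J cells, and every SD below has n = 2. Mouse embryonic fibroblasts (MEF), the starting cells, were grown in MEF medium. Induced pluripotent stem cells (iPSC), the end state, were grown in ES medium. The 4 groups between them were reprogramming in ES medium to which dox and AA were added, so medium and group changed together. All 4 were sorted as carrying SSEA1, a surface carbohydrate. The d3_Ineff cells (day 3) were SSEA1+CD73-Sca1+ and the d3_Eff cells SSEA1+CD73+Sca1-. The d6_Ineff cells (day 6) were SSEA1+EpCAM-Sca1+ and the d6_Eff cells SSEA1+EpCAM+Sca1-. Eff and Ineff are the submitters' names, and the gates of the 2 days rest on different surface proteins. Trypsin harvest and flow sorting are stated for every sample. Nothing in the labels tells whether the 2 replicates of a group were grown separately, so p-values measure only the spread between these samples, which may be technical.

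Fibroblasts secrete a matrix in which collagen fibrils are joined by glycoproteins and proteoglycans. Adhesive and matricellular proteins such as fibronectin bind integrins and tune adhesion. Fibrillin microfibrils carry elastin and hold latent TGF-beta through its binding proteins. Small leucine-rich proteoglycans coat collagen fibrils and govern their assembly, large proteoglycans bind hyaluronan, and nidogens and perlecan link the networks of basement membranes. Mesenchymal cells are the main source of most of these proteins, while pluripotent cells make chiefly basement membrane components. The 40 genes were read in 4 roles: 13 adhesive and matricellular genes, 15 of elastic fibres and microfibrils, 7 small leucine-rich proteoglycans, and 5 of large proteoglycans and basement membranes.

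Libraries held 9284060 to 22763548 reads in genes. Replicate 2 of MEF stood apart, with 47.2% of its reads outside genes, and replicate 2 of d6_Eff had 24.1%, against 5.10 to 11.7% in the other 10 libraries. The labelled cell types showed their defining markers: all 10 fibroblast markers were over 1 CPM (a count scaled to 1000000 gene counts by trimmed means) in MEF and all 11 markers of pluripotent cells were over 1 CPM in iPSC. Summed fibroblast markers lay between 17953 and 48092 CPM in MEF and at 118 to 119 CPM in iPSC. The summed markers of leukocytes did not exceed 14.8 CPM in any library. MEF also held markers of smooth muscle (8095 to 12096 CPM), cartilage and tendon cells (139 to 422 CPM) and skeletal muscle (161 to 176 CPM). Markers of extraembryonic and definitive endoderm summed to 52.1 to 109 CPM there, of endothelium to 8.21 to 10.5 and of keratinocytes to at most 1.19.

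The 40 genes took a smaller share of the transcriptome in every other group than in MEF, and on both days a smaller share in Eff than in Ineff cells. Their share of all gene counts was 3.65% and 1.29% in the 2 MEF libraries, 0.523 ± 0.0641% in d3_Ineff, 0.318 ± 0.0623% in d3_Eff, and 0.712 ± 0.0645% in d6_Ineff. It was 0.189 ± 0.0145% in d6_Eff and 0.146 ± 0.00274% in iPSC. Both MEF libraries lay above all others, and on each day both Ineff libraries lay above both Eff libraries. Of the 40 genes, 31 had their highest mean level in MEF, 5 in d6_Ineff, 3 in d3_Ineff and 1 in iPSC, whereas MEF held the highest level of 28.8% of all genes tested. The lowest mean level was in iPSC for 26 of the 40, against 27.5% of all genes. These are levels in bulk RNA, in which fewer cells of a type and less RNA per cell cannot be told apart.

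**Figure D1:**
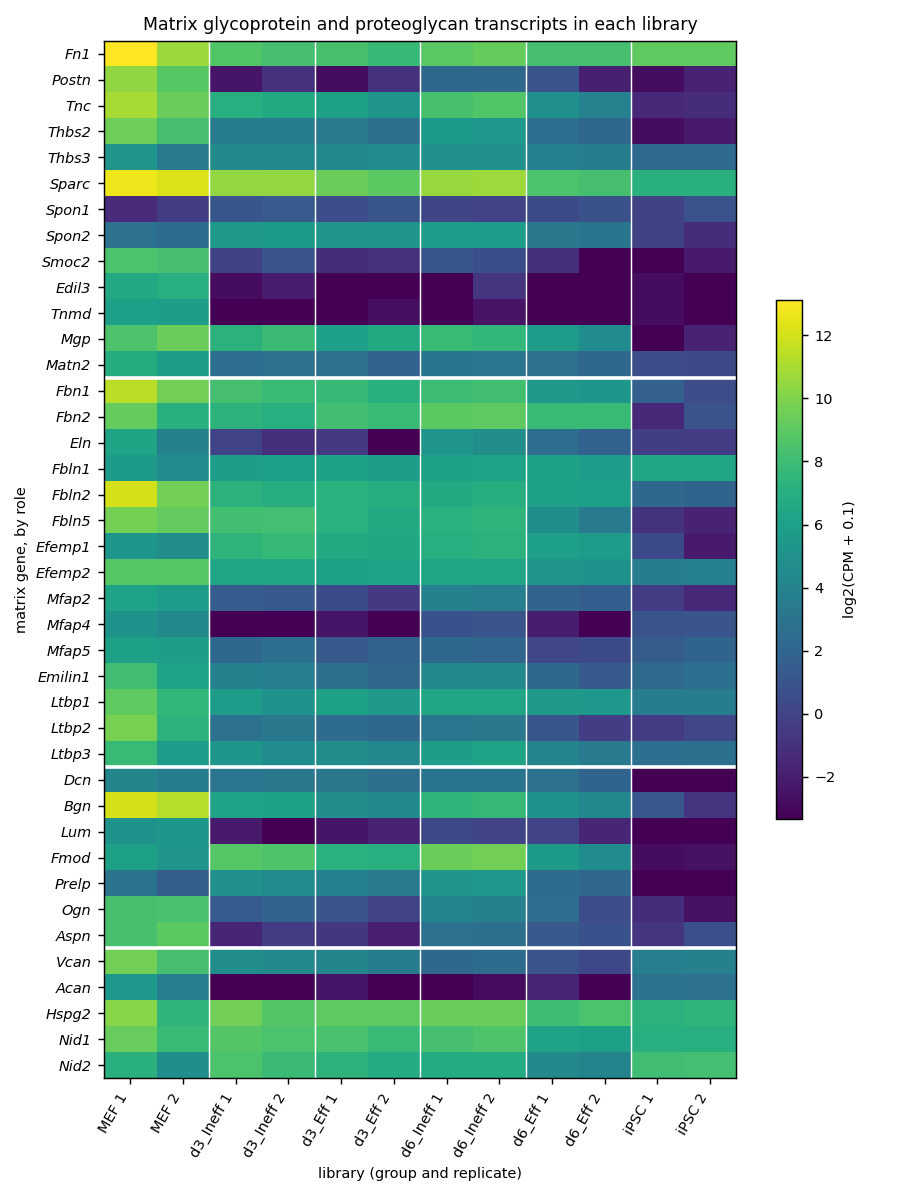
Level of each of the 40 genes (rows, grouped by role with white lines between roles, in the order adhesive, elastic fibre, small leucine-rich, and large proteoglycan with basement membrane) in each of the 12 libraries (columns), as log2(CPM + 0.1). MEF columns are bright for most genes, the iPSC columns are dark for nearly all small leucine-rich proteoglycans, and Fmod, Prelp, Spon2 and Efemp1 are brighter in d3_Ineff and d6_Ineff than in MEF.

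Per kilobase of exon, Sparc, which encodes a collagen-binding matricellular protein, was the most abundant of the 40 in MEF at 1524 ± 324 CPM per kb. Bgn, encoding biglycan, led the small leucine-rich proteoglycans there at 554 ± 217 CPM per kb. Fbln2, encoding fibulin-2, led the elastic fibre genes at 395 ± 381 CPM per kb, and Nid1, encoding nidogen-1, led its role at 61.6 ± 42 CPM per kb. In iPSC the order was different. Nid2, encoding nidogen-2, led all 40 at 53.4 ± 3.31 CPM per kb, followed by Fn1 (fibronectin) at 47.1 ± 0.0305 and Sparc at 36.9 ± 0.492. Fbln1, encoding fibulin-1, was at 18.9 ± 0.963 CPM per kb, and the highest small leucine-rich proteoglycan, Aspn, at 0.422 ± 0.313. Fmod, encoding fibromodulin, was the most abundant of the 7 small leucine-rich genes per kilobase in all 4 sorted groups, from 11.5 ± 5.41 CPM per kb in d6_Eff to 222 ± 19.7 in d6_Ineff.

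**Figure D2:**
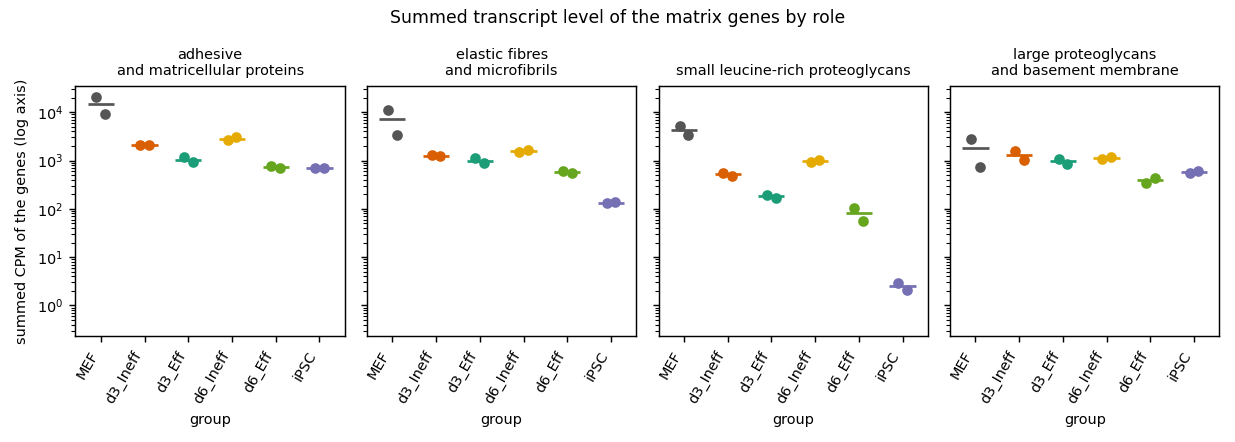
Summed CPM of the genes of each role (log axis) in the 6 groups. Points are libraries and bars are group means. Small leucine-rich proteoglycans span from 5073 CPM in MEF replicate 1 to 2.11 CPM in iPSC replicate 2, while large proteoglycans and basement membrane genes stay above 346 CPM in every library.

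Some of the genes lie side by side in the genome. In the RefSeq gene order Prelp and Fmod are neighbours on chromosome 1, as are Dcn and Lum, and Smoc2 and Thbs2. Aspn and Ogn on chromosome 13 have only Omd between them, another small leucine-rich proteoglycan, and Edil3 and Vcan have only Hapln1. The neighbours Fmod and Prelp both stood higher in d3_Ineff than in MEF, as given below, and Ogn and Aspn both stood lower. Smoc2 and Thbs2 were also both called lower there, as were Edil3 and Vcan. Dcn and Lum differed, as Lum was called lower and Dcn was not called. In that comparison 28 of the 40 genes were called lower, and whether neighbours moved together was not tested. Only Fmod with Prelp and Ogn with Aspn had promoters for both genes, so the 250 bases upstream of their starts are shown. The sequences are from RefSeq on GRCm38.p6, 5′ to 3′ on the gene's strand, at chr1:134037004-134037253 (plus) for Fmod, chr1:133921402-133921651 (minus) for Prelp, chr13:49607765-49608014 (plus) for Ogn and chr13:49544193-49544442 (plus) for Aspn. Capitals mark matches on either strand to GGAATG, a motif bound by TEAD factors, or to the core promoter letters TATAAA.
Fmod: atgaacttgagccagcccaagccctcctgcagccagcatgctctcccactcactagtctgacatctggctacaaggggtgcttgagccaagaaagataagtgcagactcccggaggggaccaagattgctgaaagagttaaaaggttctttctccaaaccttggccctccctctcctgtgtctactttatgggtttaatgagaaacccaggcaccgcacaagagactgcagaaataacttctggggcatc
Prelp: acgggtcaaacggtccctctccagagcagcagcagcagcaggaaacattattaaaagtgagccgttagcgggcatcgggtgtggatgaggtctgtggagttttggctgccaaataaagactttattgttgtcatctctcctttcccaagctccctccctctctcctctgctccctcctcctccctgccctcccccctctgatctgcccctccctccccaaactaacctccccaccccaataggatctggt
Ogn: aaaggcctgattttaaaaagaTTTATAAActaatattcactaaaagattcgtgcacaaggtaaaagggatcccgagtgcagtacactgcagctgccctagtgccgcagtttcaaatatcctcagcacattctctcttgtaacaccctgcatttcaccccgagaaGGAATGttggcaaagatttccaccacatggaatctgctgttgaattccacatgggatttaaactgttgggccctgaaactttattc
Aspn: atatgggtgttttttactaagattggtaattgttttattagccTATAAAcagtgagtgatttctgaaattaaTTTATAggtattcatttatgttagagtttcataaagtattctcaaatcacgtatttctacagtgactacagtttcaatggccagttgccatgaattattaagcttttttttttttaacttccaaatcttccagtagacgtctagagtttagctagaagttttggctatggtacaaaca
Of the 40 genes, 26 had promoters in the RefSeq table, 34 in all. The entries missing are Eln, Lum, Fn1, Edil3, Mfap4, Dcn, Nid2, Spon2, Fbn2, Matn2, Smoc2, Spon1, Mgp and Mfap5. The Ogn window held 1 GGAATG and 2 overlapping TATAAA on opposite strands, the Aspn window held 2 TATAAA, and the Fmod and Prelp windows held none of the 4 motifs searched. TATAAA was in 6 of the 34 windows and in 12.4% of all 32851 windows of this length. TGANTCA (AP-1) was in 1 of 34 and in 6.75% of all, GGAATG in 4 of 34 and in 12.6%, and GGGCGG (GC box) in 18 of 34 and in 32.7%. A match is a run of letters and does not show a site in use.

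Between the end states, nearly all of the 40 genes were lower in iPSC. In iPSC against MEF 37 of the 40 fell and 2 rose, with 1 not called, against a background of 26.7% of all genes lower and 26.0% higher. Calls throughout are at an adjusted p under 0.05 by edgeR's quasi-likelihood test over all genes. The median log2 fold change of the 40 was -6.59, against 0.04 over all genes tested, and -6.13 with the 3 genes at 0 in iPSC set to their lower bound. By role, 12 of 13 adhesive genes, 14 of 15 elastic fibre genes, all 7 small leucine-rich proteoglycans and 4 of 5 genes of the last role fell. Leaving out MEF replicate 1 gave a median of -6.15 and leaving out MEF replicate 2 gave -7.08.

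Among adhesive genes, Postn, which encodes the matricellular protein periostin, was at 1329 and 456 CPM in MEF and at 0.0430 and 0.198 in iPSC. Mgp, encoding matrix Gla protein, an inhibitor of calcification, was at 375 and 697 CPM in MEF and at 0 and 0.198 in iPSC. Thbs2, encoding the antiangiogenic thrombospondin-2, was at 729 and 314 CPM in MEF and at 0.0430 and 0.132 in iPSC. In each case the groups lay far apart, with the iPSC libraries at 0 to 3 reads. The log2 fold changes were -12.97 ± 1.13 (SE; edgeR adjusted p = 3.45e-06) for Postn, -12.61 ± 0.82 (edgeR adjusted p = 4.4e-07) for Mgp and -12.58 ± 0.68 (edgeR adjusted p = 1.31e-07) for Thbs2. Over 3 counts in iPSC, the ratio of MEF to iPSC was 5925 for Mgp (95% exact counting interval 2027 to 28734) and 7909 for Thbs2 (2706 to 38357). Sparc was lower but still well expressed, at 6642 and 4907 CPM in MEF and 138 and 141 in iPSC (log2 fold change -5.37 ± 0.26, edgeR adjusted p = 7.38e-08). Fn1 was at 8861 and 1592 CPM in MEF and at 551 and 550.4 in iPSC (log2 fold change -3.25 ± 0.60, edgeR adjusted p = 0.000919). The 2 MEF values of Fn1 differed 5.57-fold and both iPSC values lay below them. Its fall was -1.52 without MEF replicate 1 and -4.07 without MEF replicate 2. Spon1, encoding the adhesive protein F-spondin, was the gene not called, at 0.310 and 0.698 CPM in MEF and 0.817 and 1.78 in iPSC.

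Among elastic fibre genes, Fbln2 was at 4234 and 801 CPM in MEF and 4.47 and 3.89 in iPSC, and it fell by 9.23 ± 0.75 on the log2 scale (edgeR adjusted p = 2.22e-06). Fbln1, whose protein binds fibronectin and basement membranes, went the other way. It was at 50.3 and 25.1 CPM in MEF and at 79.5 and 85.5 in iPSC, the group with its highest level, and rose by 1.12 ± 0.28 (edgeR adjusted p = 0.00622). Its sorted groups lay in between, from 52.7 to 75.6 CPM in single libraries, and it was called in no other comparison. Of the small leucine-rich genes, Bgn was at 4315 and 2447 CPM in MEF and 2.06 and 0.461 in iPSC. Aspn, encoding asporin, was at 317 and 499 CPM in MEF and at 0.473 and 1.52 in iPSC. Both fell, by 11.29 ± 0.65 and 8.77 ± 0.58 on the log2 scale (edgeR adjusted p = 1.97e-07 and 5.19e-07). Dcn, Lum and Prelp, encoding decorin, lumican and prolargin, had no count in either iPSC library, so against a floor of 3 counts over the group (0.0780 CPM) they were at least 187-fold, 479-fold and 69.6-fold lower than in MEF.

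The last role held the other gene that rose. Nid2 was at 141 and 29.3 CPM in MEF and at 264 and 288 in iPSC, so both iPSC libraries lay above both MEF libraries. It rose by 1.69 ± 0.52 (edgeR adjusted p = 0.0179), a call lost without iPSC replicate 2 (adjusted p = 0.0586), with a log2 fold change between 0.92 and 3.25 over all settings tried. Exons of Nid2 overlap those of Rtraf on the opposite strand over 8.45% of their length, and counting ignored strand. Reads there cannot be assigned to 1 of the 2 genes and may have been set aside as ambiguous, which was not tested. Its relative Nid1 fell, from 634 and 222 CPM to 125 and 126 (log2 fold change -1.77 ± 0.39, edgeR adjusted p = 0.0029). Acan, encoding the cartilage proteoglycan aggrecan, fell from 43.3 and 12.8 CPM to 7.52 and 7.31 (edgeR adjusted p = 0.0348). Hspg2, encoding perlecan, was at 1194 and 170 CPM in MEF and 154 and 175 in iPSC, which overlap, and it was called lower (log2 fold change -2.06 ± 0.64, edgeR adjusted p = 0.0196). The calls of Acan and Hspg2 were both lost without MEF replicate 1 (log2 fold change -0.78 and -0.04), without iPSC replicate 1 and without iPSC replicate 2, and that of Acan with library totals too. Vcan, encoding the hyaluronan-binding versican, fell from 796 and 312 CPM to 13.1 and 14.1 (log2 fold change -5.35 ± 0.44, edgeR adjusted p = 2.5e-06).

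The 2 MEF libraries gave different levels for many of the 40 genes, which bears on every comparison with MEF. Replicate 1 read higher than replicate 2 in 33 of 40, with a median ratio of 2.00, against 1.11 over the 10254 genes with at least 5 CPM in MEF. The ratio rose with exon length, with a Spearman rho of 0.56 across the 40 genes and 0.51 across all those genes, given as a description. Its median was 1.22 over the 14 genes under 4 kb and 3.91 over the 12 above 8 kb, against 0.828 and 1.76 for all genes. Hspg2 had the largest ratio, 7.03, while 7 genes read higher in replicate 2. Of these, Mgp (0.538), Aspn (0.635), Lum, Efemp2 and Ogn are under 4 kb, and Spon1 (0.444, at under 1 CPM) and Edil3 (0.774) are above 8 kb. The part of the reads outside genes in these differences was not tested. In each comparison with MEF, 21 of the 40 log2 fold changes moved by more than 1.5-fold on leaving out 1 MEF library.

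**Figure D3:**
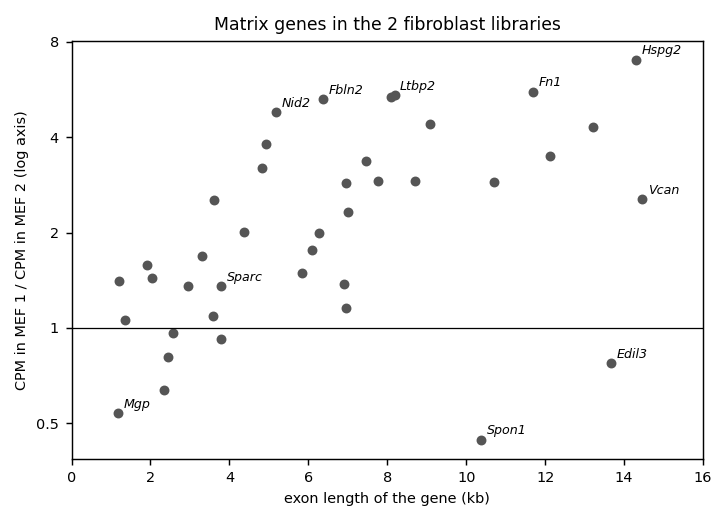
Ratio of the CPM in MEF replicate 1 to that in MEF replicate 2 (log axis) against exon length in kb, 1 point for each of the 40 genes. The ratio runs from 0.444 (Spon1) to 7.03 (Hspg2), and the 12 genes longer than 8 kb have a median of 3.91.

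By day 3 most of the 40 genes were already lower than in MEF. A small set was higher, a share not above that of all genes. In d3_Ineff 28 fell and 6 rose, with 6 not called, against 15.0% of all genes lower and 15.0% higher. In d3_Eff 28 fell and 3 rose, with 9 not called, against 18.6% lower and 18.0% higher. Both comparisons use the same MEF libraries. The median log2 fold changes were -3.51 in d3_Ineff and -4.12 in d3_Eff, with 0 for all genes in both. Without MEF replicate 1 the counts were 26 lower and 9 higher in d3_Ineff and 28 lower and 8 higher in d3_Eff, and the medians -2.41 and -3.09. All genes were then 16.4% lower and 22.6% higher in d3_Ineff, and 18.6% and 23.9% in d3_Eff. Without MEF replicate 2 they were 31 lower and 5 higher, and 33 lower and 3 higher, with medians of -3.95 and -4.57, against 18.3% and 14.8% of all genes, and 21.9% and 16.8%.

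The genes that rose include 2 neighbours among the small leucine-rich proteoglycans. Fmod was at 64.7 and 38.3 CPM in MEF, 434 and 379 in d3_Ineff, 142 and 129 in d3_Eff, 689 and 781 in d6_Ineff, and 50.6 and 25.3 in d6_Eff. In iPSC it had 1 read in each library. Both Ineff groups lay above MEF in every library, d3_Eff lay between MEF and d3_Ineff, and d6_Eff overlapped MEF. Fmod rose 7.85-fold in d3_Ineff (log2 fold change 2.97 ± 0.33, edgeR adjusted p = 6.19e-05) and 2.62-fold in d3_Eff (1.39 ± 0.31, edgeR adjusted p = 0.005). Prelp, whose protein anchors basement membranes to the tissue beneath, was at 7.79 and 3.07 CPM in MEF, 31.9 and 25.6 in d3_Ineff, 13.7 and 10.3 in d3_Eff, 37.1 and 42.9 in d6_Ineff, and 5.39 and 4.17 in d6_Eff, with no count in iPSC. The order of its groups was that of Fmod. Prelp rose in d3_Ineff (log2 fold change 2.34 ± 0.40, edgeR adjusted p = 0.00146) and in d3_Eff its 1.08 ± 0.39 missed the threshold (edgeR adjusted p = 0.0516). Exons of Prelp overlap a predicted gene on the opposite strand over 9.68% of their length.

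Of the adhesive and elastic fibre genes, Spon2 and Efemp1 rose in both day 3 groups. Spon2, encoding the secreted adhesion protein spondin-2, was at 7.18 and 5.31 CPM in MEF, 45.6 and 50.6 in d3_Ineff, 38.2 and 37.3 in d3_Eff, 51.7 and 52.5 in d6_Ineff, and 8.86 and 8.16 in d6_Eff. In iPSC it was at 0.860 and 0.329 CPM. The first 3 sorted groups lay close together and well above MEF, and d6_Eff was just above MEF. Its log2 fold changes against MEF were 2.92 ± 0.29 in d3_Ineff (edgeR adjusted p = 3.24e-05) and 2.57 ± 0.29 in d3_Eff (edgeR adjusted p = 5.11e-05). Efemp1, encoding fibulin-3, was at 39.9 and 27.8 CPM in MEF, 165 and 209 in d3_Ineff, 106 and 87.9 in d3_Eff, 127 and 148 in d6_Ineff, and 61.4 and 52.3 in d6_Eff. In iPSC it was at 1.20 and 0.132 CPM. All 4 sorted groups lay above MEF. It rose by 2.46 ± 0.40 in d3_Ineff (edgeR adjusted p = 0.000844) and by 1.51 ± 0.39 in d3_Eff (edgeR adjusted p = 0.0104, lost at 0.0759 without d3_Eff replicate 1). Nid2 rose in d3_Ineff to 353 and 241 CPM (log2 fold change 1.79 ± 0.52, edgeR adjusted p = 0.0233), a call lost without d3_Ineff replicate 1, with an adjusted p of up to 0.119. In d3_Eff it was at 161 and 111 CPM and overlapped MEF (0.67 ± 0.51, edgeR adjusted p = 0.34). Spon1, at 1.97 and 2.58 CPM in d3_Ineff, was called higher (log2 fold change 2.26 ± 0.77, edgeR adjusted p = 0.0466), but the call was lost in 16 of 18 alternatives, among them without either MEF and either d3_Ineff library, with an adjusted p of up to 0.237.

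Several genes fell to a handful of reads by day 3. Tnmd, encoding the tendon protein tenomodulin, was at 62.9 and 59.3 CPM in MEF, had no count in d3_Ineff and had 0 and 0.0520 CPM in d3_Eff. Mfap4, encoding a microfibril-associated glycoprotein, was at 34.9 and 22.1 CPM in MEF, 0 in both d3_Ineff libraries, and 0.0867 and 0 in d3_Eff. Acan was at 43.3 and 12.8 CPM in MEF, 0 in d3_Ineff, and 0.0867 and 0 in d3_Eff. All 3 genes were thus at 0 to 2 reads per day 3 library. Summed markers of cartilage and tendon cells were at 139 to 422 CPM in MEF, 25.0 to 31.0 in d3_Ineff and 16.6 to 17.9 in d3_Eff. Their part in these falls was not tested. Against the floor of 3 counts over the d3_Ineff libraries (0.0667 CPM), Tnmd was at least 916-fold, Mfap4 at least 427-fold and Acan at least 421-fold lower than in MEF. Edil3, encoding an integrin-binding protein of vessels, was at 97.3 and 126 CPM in MEF, 0.0437 and 0.136 in d3_Ineff, and 0 in both d3_Eff libraries, at least 1573-fold lower than in MEF. Postn was at 0.0875 and 0.407 CPM in d3_Ineff and 0.0434 and 0.416 in d3_Eff. In d3_Eff Tnmd had 1 count over both libraries, a ratio of MEF to d3_Eff of 2621 (95% exact counting interval 469.7 to 103568). None of these 5 genes overlapped between MEF and either day 3 group, and all were called lower in both (edgeR adjusted p at most 0.000122). Other members fell less: Sparc fell 4.15-fold in d3_Ineff and 10.1-fold in d3_Eff, and Fbln5, encoding the elastogenic fibulin-5, 2.45-fold and 5.76-fold. The call of Fbln5 in d3_Ineff (edgeR adjusted p = 0.02) was lost with library totals, without MEF replicate 1 and without either d3_Ineff library, with an adjusted p of up to 0.109. That of Mgp was lost with library totals and without MEF replicate 2 or either d3_Ineff library (up to 0.185), and that of Ltbp3 without MEF replicate 1 or d3_Ineff replicate 2 (up to 0.0912). Hspg2, Nid1, Fbn2, Thbs3, Fbln1 and Dcn were called in neither day 3 group, with log2 fold changes between -1.35 and 0.71. For most of these genes the sign or the call turned on which MEF library was left out. In d3_Ineff Hspg2 was called higher without MEF replicate 1 (log2 fold change 1.82, edgeR adjusted p = 0.000441) and lower without MEF replicate 2 (-1.07, edgeR adjusted p = 0.0134). Thbs3 (0.92 and -0.84) and Nid1 (0.82 and -0.78) were likewise called in opposite directions there, as were Hspg2 (1.67 and -1.27) and Thbs3 (1.02 and -0.78) in d3_Eff. The 2 MEF libraries thus gave opposite directions for these values. Fbn2 was called lower in both groups without MEF replicate 2 (-2.12 and -1.39), as were Nid1 (-1.31) and Dcn (-1.28) in d3_Eff, and Fbln1 was called higher in both without MEF replicate 1 (1.28 and 1.32).

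**Figure D4:**
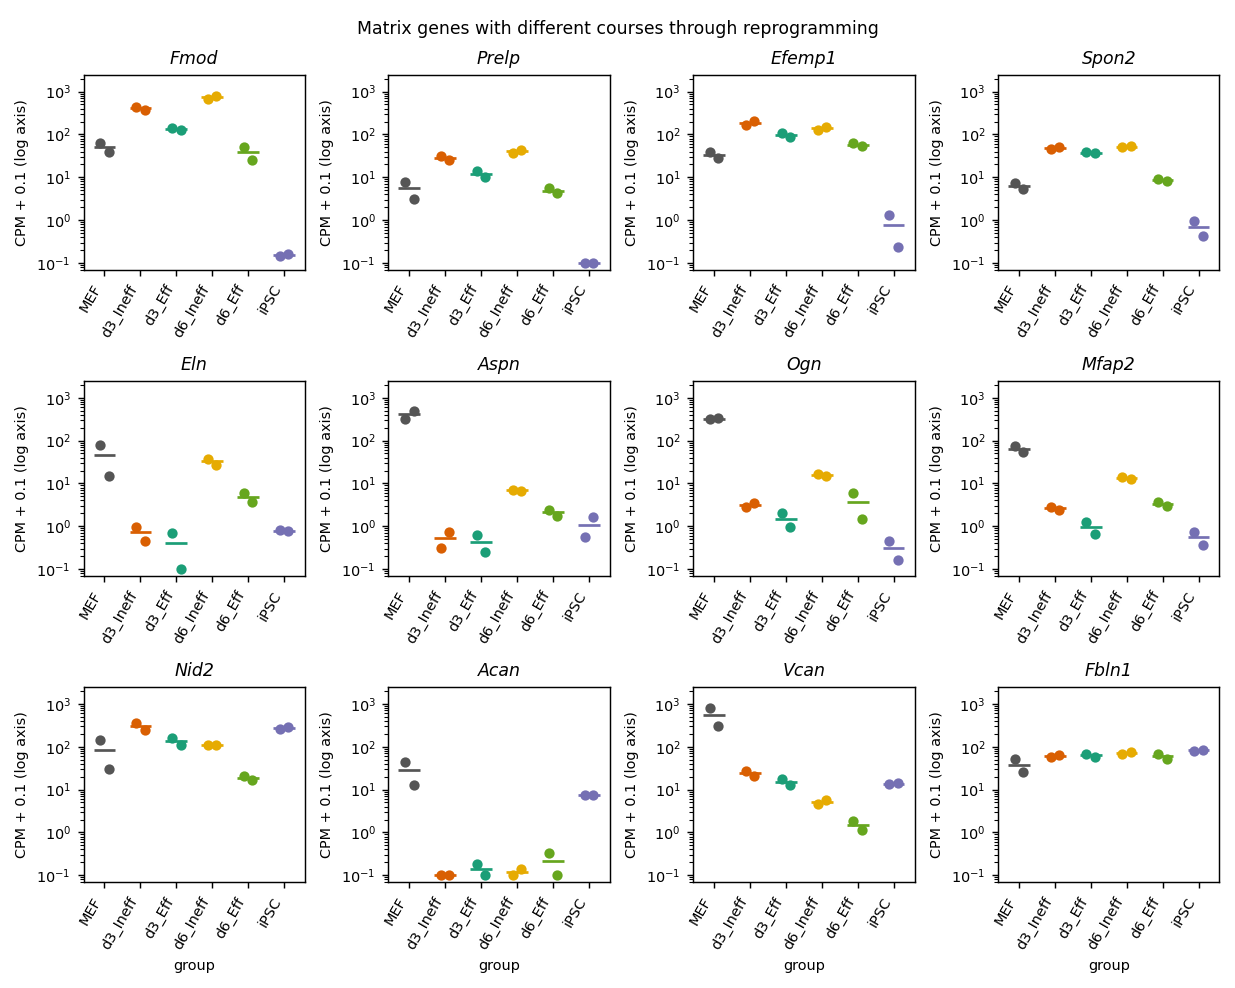
CPM + 0.1 (log axis) of 12 of the genes in the 6 groups. Points are libraries and bars are group means. Fmod, Prelp, Efemp1 and Spon2 are higher in Ineff groups than in MEF and lowest in iPSC. Eln and Aspn are lowest on day 3 and Ogn and Mfap2 in iPSC, and each is higher in d6_Ineff than on day 3. Nid2, Acan and Vcan are higher in iPSC than in d6_Eff.

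On day 3 few of the 40 genes were called between the Eff and Ineff gates. In d3_Eff against d3_Ineff 1 of the 40 was called lower and none higher, against 0.240% of all genes lower and 0.160% higher. At an unadjusted p under 0.05 the numbers were 12 lower and 0 higher, against 5.18% and 2.92% of all genes. DESeq2 called 6 lower and none higher, against 1.70% and 0.874% of all genes. The median log2 fold change of the 40 was -0.52, against 0 over all genes. The gene called was Sparc, at 1373 and 1409 CPM in d3_Ineff and 644 and 495 in d3_Eff. Both d3_Eff libraries lay below both d3_Ineff libraries, and the fold was 2.44 (log2 fold change -1.29 ± 0.22, edgeR adjusted p = 0.0387). The call was lost in 11 of 18 alternatives, which were library totals and leaving out any 1 of the 10 libraries other than MEF, with an adjusted p of up to 0.495 and log2 fold changes between -1.55 and -1.11. Leaving out MEF replicate 2, which is in the shared estimate of the spread, gave 8 lower: Sparc, Efemp1, Mfap2, Emilin1, Bgn, Fmod, Prelp and Nid2. Leaving out MEF replicate 1 gave 7. The share of all genes called lower went up in these fits too, to 2.63% and 2.37%. Fmod was 3.00-fold lower in d3_Eff with no overlap (log2 fold change -1.59 ± 0.31, edgeR adjusted p = 0.066). Summed fibroblast markers were at 8229 to 8687 CPM in d3_Ineff and 4879 to 5260 in d3_Eff. Smooth muscle markers summed to 4194 to 4443 CPM in d3_Ineff and 1420 to 1444 in d3_Eff. Those of pluripotent cells overlapped, at 523 to 557 and 534 to 623 CPM. The part of these markers in the values of the 40 genes was not tested.

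On day 6 the gates differed widely, and every one of the 40 genes that was called had the lower level in Eff cells. In d6_Eff against d6_Ineff 25 of the 40 fell and none rose, against 9.25% of all genes lower and 5.38% higher. At an unadjusted p under 0.05 there were 29 lower and 0 higher, against 16.2% and 12.3% of all genes, and DESeq2 called 27 lower and 0 higher, against 12.9% and 7.68%. The median log2 fold change was -2.16, against 0 over all genes, and -2.02 with a gene at 0 set to its bound and Tnmd, at the floor in both groups, left out. By role 6 of 13 adhesive genes, 11 of 15 elastic fibre genes, 5 of 7 small leucine-rich proteoglycans and 3 of 5 genes of the last role fell. Without d6_Eff replicate 2, which had 24.1% of its reads outside genes, 13 were called lower, against 3.89% of all genes. The 12 calls lost were Smoc2, Mgp, Fbn1, Eln, Efemp1, Emilin1, Ltbp2, Ltbp3, Ogn, Aspn, Vcan and Nid2, with adjusted p values of 0.0643 to 0.242. Of these, Eln, Efemp1 and Aspn were also lost without any 1 of the other 3 day 6 libraries, Ltbp2 and Ogn without either d6_Ineff library, Smoc2 without d6_Ineff replicate 1, Ltbp3 and Vcan without d6_Ineff replicate 2, and Efemp1 without any 1 day 3 library. With both libraries rich in reads outside genes left out, an alternative chosen after seeing the data, 32 were lower, against 11.2% of all genes. Summed fibroblast markers were at 5161 to 5473 CPM in d6_Ineff and 494 to 745 in d6_Eff. Smooth muscle markers summed to 1744 to 1803 CPM in the former and 127 to 193 in the latter, and those of pluripotent cells to 610 to 635 and 2107 to 2157. The markers of pluripotent cells include Epcam, whose protein was used to sort these gates. The part of all these markers in the differences of the 40 genes was not tested.

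Among the 8 genes with the smallest adjusted p, 4 encode adhesive or matricellular proteins. Sparc was at 1531 and 1669 CPM in d6_Ineff and 353 and 312 in d6_Eff, a 4.81-fold difference (log2 fold change -2.27 ± 0.23, edgeR adjusted p = 0.000164). Tnc, encoding tenascin-C, a protein of remodelling tissue, was at 321 and 396 CPM in d6_Ineff and 30.2 and 15.7 in d6_Eff, a 15.6-fold difference (-3.96 ± 0.51, edgeR adjusted p = 0.000638). Neither gene overlapped between the gates. Thbs2 was at 48.9 and 43.4 CPM in d6_Ineff and 6.41 and 4.40 in d6_Eff (-3.08 ± 0.41, edgeR adjusted p = 0.000716). Spon2, given above, was 6.11-fold lower in d6_Eff (-2.61 ± 0.28, edgeR adjusted p = 0.000246). Fn1 was at 472 and 600.3 CPM in d6_Ineff and 301 in both d6_Eff libraries, and its -0.83 ± 0.56 was not called (edgeR adjusted p = 0.37).

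Fbln5 and Efemp2, which encode fibulins needed to assemble elastic fibres, were the elastic fibre genes in that set. Fbln5 was at 147 and 162 CPM in d6_Ineff and 28.4 and 11.0 in d6_Eff (log2 fold change -2.96 ± 0.39, edgeR adjusted p = 0.000703). Efemp2 was at 80.7 and 82.4 CPM in d6_Ineff and 36.8 and 33.7 in d6_Eff (-1.21 ± 0.16, edgeR adjusted p = 0.000804). In both genes every d6_Eff library lay below every d6_Ineff library, and the Efemp2 difference was 2.31-fold. Eln, encoding elastin itself, was at 38.0 and 27.5 CPM in d6_Ineff and 5.97 and 3.52 in d6_Eff (-2.77 ± 0.77, edgeR adjusted p = 0.0342). Its call was lost without any of the 4 day 6 libraries, with an adjusted p of up to 0.212. Fbn1, encoding fibrillin-1, the main microfibril protein, was at 247 and 282 CPM against 47.9 and 39.0 (-2.60 ± 0.51, edgeR adjusted p = 0.00657). Exons of Fbn1 overlap a predicted gene on the opposite strand over 20.1% of their length. Fbn2, encoding fibrillin-2, the fibrillin of developing tissue, was at 496 and 517 CPM against 226 and 228 and was not called (-1.16 ± 0.58, edgeR adjusted p = 0.218).

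The small leucine-rich genes Fmod and Prelp complete the 8. Fmod was 19.4-fold lower in d6_Eff (log2 fold change -4.27 ± 0.35, edgeR adjusted p = 5.29e-05) and Prelp 8.34-fold lower (-3.06 ± 0.40, edgeR adjusted p = 0.000962), with the library values given above. Bgn was at 171 and 194 CPM in d6_Ineff and 33.5 and 20.2 in d6_Eff (-2.76 ± 0.44, edgeR adjusted p = 0.00204). Dcn, at 8.46 CPM in both d6_Ineff libraries and 6.99 and 3.82 in d6_Eff, was not called (-0.64 ± 0.38, edgeR adjusted p = 0.314), and nor was Lum. In the last role Nid1 was at 310 and 393 CPM in d6_Ineff and 72.0 and 63.7 in d6_Eff (-2.37 ± 0.40, edgeR adjusted p = 0.00283). Hspg2, at 660.3 and 697 against 252 and 345 CPM, was not called (-1.19 ± 0.63, edgeR adjusted p = 0.247).

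The Eff against Ineff log2 fold change was lower on day 6 than on day 3 in nearly every gene, but few genes passed the test of that difference. In the interaction contrast, day 6 minus day 3 of the Eff against Ineff log2 fold change, 3 of the 40 were lower and none higher, against 1.09% of all genes lower and 0.296% higher. The median was -1.37, against -0.01 over all genes. Thbs2 went from a gap of -0.40 ± 0.38 to -3.08 ± 0.41 (difference -2.68 ± 0.55, edgeR adjusted p = 0.0427). Spon2 went from -0.35 ± 0.26 to -2.61 ± 0.28 (difference -2.26 ± 0.38, edgeR adjusted p = 0.0194), and Fmod from -1.59 ± 0.31 to -4.27 ± 0.35 (difference -2.69 ± 0.44, edgeR adjusted p = 0.0193). On day 3 Thbs2 was at 11.9 and 12.0 CPM in d3_Ineff and 11.5 and 6.50 in d3_Eff. These 3 calls were all lost without any 1 of the 4 day 3 libraries, the d6_Ineff libraries or d6_Eff replicate 2, with adjusted p values of up to 0.182, and Thbs2 was also lost with library totals and without d6_Eff replicate 1 or either iPSC library. At an unadjusted p under 0.05, 17 were lower and 0 higher, against 7.96% and 4.32% of all genes. DESeq2 called 10 lower and 0 higher, against 3.50% and 1.40% of all genes. Leaving out either MEF replicate 1 or MEF replicate 2 gave 16 lower, against 5.39% and 5.18% of all genes.

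The 2 days share no libraries, so their directions can be counted together. Among the 37 genes with over 3 counts in at least 1 gate on each day, 31 were lower in Eff cells on both days (83.8%, against 32.8% of the 15081 genes meeting the same rule). The log2 fold change was lower on day 6 than on day 3 in 36 of the 37 (97.3%, against 51.3%).

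**Figure D5:**
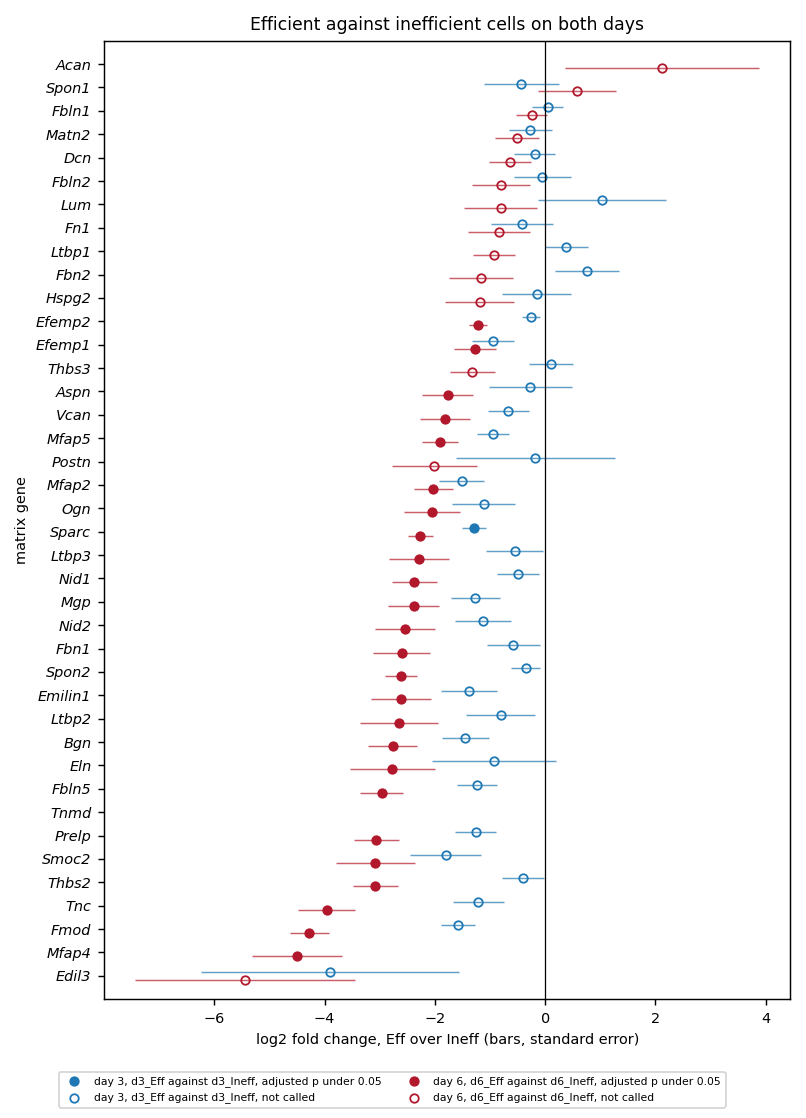
Log2 fold change of Eff over Ineff cells on day 3 (blue) and day 6 (red) for the 40 genes, sorted by the day 6 value, with standard errors as bars. Filled points have an adjusted p under 0.05, which are Sparc on day 3 and 25 genes on day 6; comparisons at or under 3 counts in both groups are left blank, and the values of Edil3, at 0 in both Eff groups, depend on the prior count.

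From day 3 to day 6 more of the 40 genes rose than fell in Ineff cells, and more fell than rose in Eff cells. In d6_Ineff against d3_Ineff 8 of the 40 rose and 1 fell, against 3.19% of all genes higher and 1.23% lower, with a median log2 fold change of 0.53 against 0 over all genes. In d6_Eff against d3_Eff 3 rose and 9 fell, against 4.24% higher and 4.87% lower, with a median of -0.76 against 0. The genes that rose in the Ineff cells were Postn, Thbs2, Eln, Mfap2, Mfap4, Lum, Ogn and Aspn. Mfap4 went from 0 in both d3_Ineff libraries to 1.68 and 1.95 CPM, at least 27.2-fold higher (edgeR adjusted p = 0.00546). Eln went from 0.875 and 0.362 to 38.0 and 27.5 CPM (log2 fold change 5.70 ± 0.93, edgeR adjusted p = 0.00746), and Postn from 0.0875 and 0.407 to 4.69 and 4.51 CPM (4.19 ± 0.96, edgeR adjusted p = 0.0339). In each of these genes both d6_Ineff libraries lay above both d3_Ineff libraries, and far below MEF for Postn and Mfap4. Vcan fell, from 27.6 and 20.8 to 4.52 and 5.46 CPM (-2.27 ± 0.40, edgeR adjusted p = 0.0105). The median log2 fold change of the 40 was 0.68 and 0.47 without d3_Ineff replicates 1 and 2, and 0.59 and 0.25 without d6_Ineff replicates 1 and 2. It was 0.53 without either MEF library. Fewer genes were called higher without any 1 of the 4 libraries compared, and more without either MEF library. That held for the 40 and for all genes. Calls of Postn, Thbs2, Lum and Ogn were lost without any 1 of the 4 libraries compared, and that of Lum without either d3_Eff library too, with an adjusted p of up to 0.303. Those of Eln and Mfap2 were lost without either d3_Ineff library, that of Mfap4 without d3_Ineff replicate 2, and that of Vcan without d3_Ineff replicate 1 or either d6_Ineff library.

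In the Eff cells Eln, Aspn and Mfap2, which encodes a small microfibril glycoprotein, rose. Eln was at 0.607 and 0 CPM in d3_Eff and 5.97 and 3.52 in d6_Eff (log2 fold change 3.86 ± 0.98, edgeR adjusted p = 0.0307). Aspn was at 0.520 and 0.156 CPM and then 2.36 and 1.64 (2.51 ± 0.62, edgeR adjusted p = 0.0277), and Mfap2 at 1.17 and 0.572 and then 3.65 and 2.94 (1.89 ± 0.41, edgeR adjusted p = 0.0133). All 3 also rose in the Ineff cells, where they reached higher levels on day 6: 32.7 ± 7.40 CPM for Eln, 6.88 ± 0.26 for Aspn and 13.5 ± 0.777 for Mfap2. The call of Aspn was lost without any 1 of the 4 libraries compared, that of Eln without d3_Eff replicate 2 or either d6_Eff library, and that of Mfap2 without d3_Eff replicate 2 or d6_Eff replicate 1, with adjusted p values of up to 0.203. Fewer genes were called higher without any 1 of these 4 libraries, among the 40 and among all genes. Ogn was called higher only with d6_Eff replicate 2 left out, with no low count filter or with both libraries rich in reads outside genes left out.

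The 9 genes that fell in the Eff cells were Spon2, Fbn1, Fbln5, Efemp2, Mfap5, Fmod, Vcan, Nid1 and Nid2. Vcan was at 17.8 and 12.6 CPM in d3_Eff and 1.74 and 1.06 in d6_Eff (log2 fold change -3.42 ± 0.45, edgeR adjusted p = 0.000782). Nid2 was at 161 and 111 CPM and then 20.9 and 16.7 (-2.85 ± 0.55, edgeR adjusted p = 0.00706), and Fbln5 at 143 and 99.5 and then 28.4 and 11.0 (-2.61 ± 0.38, edgeR adjusted p = 0.00151). The libraries of the 2 days did not overlap in these genes. Vcan was thus called lower on day 6 in both gates. The number of genes that fell was 4 without d6_Eff replicate 2, 17 without MEF replicate 1 and 18 without MEF replicate 2, against 1.68%, 9.34% and 8.99% of all genes. The call of Fbn1 was lost without any 1 of the 4 libraries compared, that of Mfap5 without d3_Eff replicate 2 or either d6_Eff library, that of Nid1 without d3_Eff replicate 1 or d6_Eff replicate 2, and those of Efemp2 and Nid2 without d6_Eff replicate 2 (adjusted p up to 0.202). Vcan, Spon2, Fmod and Fbln5 were called lower without any 1 of them.

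From d6_Eff cells to iPSC more of the 40 genes fell than rose. The small leucine-rich proteoglycans fell in 6 of 7 cases, while 3 of the 5 large proteoglycan and basement membrane genes rose. In iPSC against d6_Eff 22 of the 40 fell and 5 rose, with 13 not called, against 15.9% of all genes lower and 13.6% higher. The share of the 40 that rose was thus near that of all genes. The median log2 fold change was -1.83, and -2.07 with genes at 0 set to their bound and the 2 at the floor left out, against 0 over all genes. The genes that rose were Acan, Mfap4, Nid2, Vcan and Mfap5. Acan was at 0.223 and 0 CPM in d6_Eff and 7.52 and 7.31 in iPSC (log2 fold change 5.84 ± 0.95, edgeR adjusted p = 0.00114). Mfap4 was at 0.134 and 0 CPM and then 1.81 and 1.91 (4.52 ± 0.82, edgeR adjusted p = 0.00216), a ratio of 24.3 over 3 counts in d6_Eff with a 95% exact counting interval of 7.99 to 121. Nid2 was at 20.9 and 16.7 CPM and then 264 and 288 (3.87 ± 0.57, edgeR adjusted p = 0.000405). Vcan rose 9.52-fold (3.25 ± 0.45, edgeR adjusted p = 0.000261), to 13.1 and 14.1 CPM, a level still far below the 796 and 312 of MEF. All 5 had libraries of iPSC above those of d6_Eff.

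Among the small leucine-rich proteoglycans, only Aspn was not called at this step. Dcn was at 6.99 and 3.82 CPM in d6_Eff and Prelp at 5.39 and 4.17, and with no count in iPSC they were at least 69.3-fold and 61.3-fold lower. Fmod went from 50.6 and 25.3 CPM to 1 read in each iPSC library (log2 fold change -9.34 ± 0.58, edgeR adjusted p = 1.08e-06), a ratio of 762 with a 95% exact counting interval of 211 to 6298. The summed level of the 7 genes was 106 and 56.7 CPM in d6_Eff and 2.92 and 2.11 in iPSC. Sparc fell 2.38-fold, the 2 groups not overlapping (-1.25 ± 0.22, edgeR adjusted p = 0.00139), and Fn1 was not called (0.87 ± 0.56, edgeR adjusted p = 0.275). The calls of Thbs3 and Eln were lost without any of the 4 libraries compared and that of Lum without replicate 1 of either group, with an adjusted p of up to 0.161. The number of genes that rose was 8 without MEF replicate 1 and 9 without MEF replicate 2, against 18.3% and 19.2% of all genes.

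Other genes of the same biology were read from 4 lists, and the shares of all genes called in each comparison, given above for the 40 genes, are the background for these counts too. Of 38 genes of glycosaminoglycan synthesis, which build the sugar chains of proteoglycans, 30 fell and 1 rose in iPSC against MEF (26.7% and 26.0% of all genes), and 19 fell and 3 rose in each day 3 group against MEF (15.0% and 15.0% of all genes in d3_Ineff, 18.6% and 18.0% in d3_Eff). Between the day 6 gates 11 fell and 0 rose in d6_Eff (9.25% and 5.38% of all genes), and 0 passed the interaction test. Chst3, encoding a chondroitin sulfotransferase, was at 2.51 ± 0.980 CPM in MEF, 113 ± 10.2 in d3_Ineff, 117 ± 13.1 in d3_Eff, 169 ± 22 in d6_Ineff, 81.0 ± 5.64 in d6_Eff and 4.20 ± 1.14 in iPSC. All sorted groups lay above both end states, and it rose by 5.41 ± 0.30 in d3_Ineff against MEF (edgeR adjusted p = 7.23e-07). Hs3st3b1, encoding a heparan sulfate sulfotransferase, rose by 3.07 ± 0.25 in the same comparison (edgeR adjusted p = 8.74e-06). Dse, encoding the epimerase that makes dermatan sulfate, the chain of decorin and biglycan, was at 38.9 ± 0.693 CPM in d3_Ineff and 16.9 ± 4.13 in d3_Eff and was the gene of this list called between the day 3 gates (-1.20 ± 0.21, edgeR adjusted p = 0.0391).

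Of 41 other matrix glycoprotein genes tested, 25 fell and 4 rose in iPSC against MEF, and 13 fell and 0 rose in d6_Eff against d6_Ineff. Thbs1, encoding thrombospondin-1, fell by 10.15 ± 0.69 on the log2 scale in iPSC against MEF (edgeR adjusted p = 6.05e-07). Ntn4, encoding the laminin-related netrin-4, was at 15.2 ± 6.27 CPM in MEF, 102 ± 1.08 in d3_Ineff, 51.3 ± 4.47 in d3_Eff, 66.5 ± 13.2 in d6_Ineff, 7.10 ± 1.74 in d6_Eff and 0.0329 ± 0.0466 in iPSC. It was lower in d6_Eff than in d6_Ineff (-3.22 ± 0.34, edgeR adjusted p = 0.000195). Npnt, encoding the integrin ligand nephronectin, rose by 3.36 ± 0.32 in d3_Ineff and by 3.24 ± 0.32 in d3_Eff against MEF (edgeR adjusted p = 2.37e-05 and 2.02e-05). Frem2, whose protein anchors epithelial basement membranes, went from 0.103 ± 0.146 CPM in MEF to 13.2 ± 4.78 in d3_Ineff and 22.4 ± 3.68 in d3_Eff and was at 23.2 ± 4.25 in iPSC. Of 12 other secreted proteoglycan and link protein genes tested, 3 rose and 6 fell in iPSC against MEF, the share that rose being near that of all genes, and 1 rose and 1 fell in d6_Eff against d6_Ineff. Ncan, the gene of the neural proteoglycan neurocan, had no count in MEF, day 3 groups or d6_Ineff and was at 0.899 ± 0.390 CPM in d6_Eff and 7.66 ± 0.297 in iPSC. It was the gene that rose between the day 6 gates (log2 fold change 7.13 ± 1.42, edgeR adjusted p = 0.0172), a size that depends on the prior count. The gene that fell, Spock2, encoding testican-2, was at 204 ± 3.72 CPM in d6_Ineff and 36.9 ± 3.27 in d6_Eff (-2.47 ± 0.55, edgeR adjusted p = 0.0121). Of 15 genes of cell surface proteoglycans and hyaluronan tested, 11 fell and 1 rose in iPSC against MEF, and 8 fell and 0 rose between the gates of day 6. Cd44, encoding the hyaluronan receptor, was at 168 ± 25.5 CPM in d6_Ineff, 42.9 ± 1.63 in d6_Eff and 0.605 ± 0.482 in iPSC (-1.97 ± 0.27 between the day 6 gates, edgeR adjusted p = 0.000931). Gpc3, encoding glypican-3, was the gene that rose, from 29.5 ± 14.5 CPM in MEF to 130 ± 3.25 in iPSC. Its means in the sorted groups lay below both end states. They were 0.820 ± 0.200 CPM in d3_Ineff, 1.13 ± 0.491 in d3_Eff, 2.15 ± 0.395 in d6_Ineff and 1.86 ± 1.14 in d6_Eff.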

How the data were processed

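The 40 genes, the gene lists and the tests were chosen with earlier results of these data known. Libraries came from a directional poly-A kit, per the labels. The authors deposited 1 table of read counts per library, with 37583 genes and 5 summary lines, which were kept out of library sizes and tests and made up 5.10 to 47.2% (reads outside genes) and 1.72 to 3.65% (ambiguous reads) of uniquely placed reads. STAR 2.3.0, Picard 1.100, HTSeq 0.6.0 and build mm9 are named, per the submitters' processing notes. Counting ignored strand, per the file names, and the sources used here do not give the annotation. Symbols, exon lengths and overlaps came from GENCODE M21 (87.4% of identifiers matched), on a later build. Exons of 15 of the 40 genes overlap a gene on the opposite strand, over 5% of exon length in Thbs3, Fbn1, Ltbp2, Prelp and Nid2.

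The count model was that of edgeR 4.0.16 (R 4.3.3, limma 3.58.1): filterByExpr on the 6 groups, TMM scaling, 1 robust quasi-likelihood fit of all 12 libraries with a mean per group (6 residual degrees of freedom, biological coefficient of variation 28.0%), F-tests of 9 contrasts, and Benjamini-Hochberg adjustment over 16240 genes, with calls at an adjusted p under 0.05. A standard error (SE) is |log2 fold change| over the root of F. The prior count of 0.125 sets fitted values near 0. A fold against a group with no count is a lower bound against 3 counts over that group, which covers counting error only. Alternatives were RLE size factors, library totals, no filter on low counts, DESeq2 1.42.0, a replicate block, leaving out each library, and leaving out MEF replicate 2 and d6_Eff replicate 2 together. All 40 genes may be named. Values in every library are given for the 3 called genes with the largest change in each direction of each comparison, for genes called between the gates of 1 day or in the interaction (at most 8, by adjusted p), and for the most abundant gene of each role per exon length in MEF and iPSC. From other lists, up to 2 called genes per direction with the smallest adjusted p could be named. Where 1 to 3 counts lie in the lower group, the ratio of pooled scaled counts has an exact (Clopper-Pearson) interval, for counting error only. Others of the 40 genes with values in the text were chosen after these were seen.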

Additional observations from a re-analysis of the deposited data

Results flagged for a closer look

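In 3 of the 40 genes the Eff against Ineff difference itself was called lower on day 6 than on day 3, against 1.09% of all genes. The test was the interaction contrast of edgeR's quasi-likelihood test. All 3 calls were lost without any 1 of the day 3 libraries, the d6_Ineff libraries or d6_Eff replicate 2, as given above. The log2 difference was -2.69 for Fmod (edgeR adjusted p = 0.0193), -2.68 for Thbs2 (edgeR adjusted p = 0.0427) and -2.26 for Spon2 (edgeR adjusted p = 0.0194). In Thbs2 and Fmod the Ineff means were higher on day 6 than on day 3 (46.1 ± 3.92 against 12.0 ± 0.039 CPM, and 735 ± 65.0 against 406 ± 39.0 CPM) while the Eff means were lower. Of these changes, the rise of Thbs2 in Ineff cells and the fall of Fmod in Eff cells were called, and the others were not. In Spon2 the Ineff means were close (52.1 ± 0.529 and 48.1 ± 3.50 CPM), and the Eff mean went from 37.7 ± 0.649 to 8.51 ± 0.495 CPM.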

How the results depend on the processing

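Of 181 calls of single genes, pooled over the 9 comparisons, none changed direction under any alternative. DESeq2 kept 181, RLE size factors, no low count filter and the replicate block 180 each, and library totals 171. Leaving out 1 library kept between 155 (d6_Eff replicate 2) and 179 (MEF replicate 2). Each library enters only some of the 9 comparisons, so these pooled numbers hide larger losses in the comparisons that use it, given above. Counts that moved by over 1.5 times were these. With no low count filter, d3_Eff against MEF had 6 higher, d3_Eff against d3_Ineff 13 lower, d6_Ineff against d3_Ineff 14 higher and 3 lower, d6_Eff against d3_Eff 5 higher and 17 lower, and the interaction 17 lower. Of all 23407 genes then tested, 3134 were higher in d3_Eff against MEF (2922 of 16240 in the main fit). In d3_Eff against d3_Ineff 321 were lower (39 in the main fit). In d6_Ineff against d3_Ineff 985 were higher and 377 lower (518 and 199). In d6_Eff against d3_Eff 1034 were higher and 1135 lower (688 and 791), and in the interaction 652 were lower (177). With library totals, d3_Eff against MEF had 5 higher and d3_Eff against d3_Ineff 0 lower, where all genes had 3495 higher and 17 lower. DESeq2 gave 6 lower in d3_Eff against d3_Ineff and 10 lower in the interaction, against 1.70% and 3.50% of all genes. With MEF replicate 2 and d6_Eff replicate 2 left out, chosen after seeing the data, there were 13 lower in d3_Eff against d3_Ineff, 15 higher and 3 lower in d6_Ineff against d3_Ineff, 5 higher in d6_Eff against d3_Eff, and 17 lower in the interaction. Leaving out 1 library at a time gave 1 to 2 higher in iPSC against MEF, 4 to 9 higher in d3_Ineff against MEF, 2 to 8 higher in d3_Eff against MEF, 0 to 8 lower in d3_Eff against d3_Ineff, 13 to 33 lower in d6_Eff against d6_Ineff, 1 to 15 higher and 0 to 2 lower in d6_Ineff against d3_Ineff, 0 to 3 higher and 4 to 18 lower in d6_Eff against d3_Eff, 5 to 9 higher in iPSC against d6_Eff, and 0 to 16 lower in the interaction. The numbers of all genes called moved under these settings too. The cause was not tested.

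Library totals moved the median log2 fold change of all genes from 0.04 to 0.31 in iPSC against MEF, from 0 to 0.20 and 0.23 in d3_Ineff and d3_Eff against MEF, and from 0 to 0.12 in d6_Ineff against d3_Ineff. All genes called higher and lower then went from 2437 and 2439 to 2983 and 1762 in d3_Ineff against MEF, from 2922 and 3013 to 3495 and 2350 in d3_Eff against MEF, and from 518 and 199 to 514 and 92 in d6_Ineff against d3_Ineff. As a check of pairing, the deviations of same-numbered libraries had a correlation over 0.1 in 2 of 15 pairs of groups. These were MEF with d3_Ineff (0.21) and MEF with d3_Eff (0.17). Such correlations cannot decide whether same-numbered libraries were paired, and the main fit treated them as unpaired. The replicate block gave 2 lower in d3_Eff against d3_Ineff, Sparc and Fmod. Groups of 2 libraries limit what can be called, and 1 read is 0.0399 to 0.140 CPM, so lower levels were not detectable.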
